A study of Mus musculus with 8 samples.

Results

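Members of the DNA replication machinery and its S phase regulators were compared between intestinal epithelial cells of WT and Rank-knockout mice. The group holds 44 genes, taken by name from the 54532 genes of the count table: the MCM2-7 helicase ring, the origin licensing factors, the helicase activators, the replicative polymerases with their clamp, clamp loader and single-strand binding protein, the enzymes that join Okazaki fragments, the G1/S regulators and a pair of fork protection factors. The names were set by function, with earlier results of these data known. Cells came from females at lactation day 5, 4 WT and 4 Rank-knockout, with 1 library each. Rank (Tnfrsf11a) encodes the receptor of the cytokine RANKL. Per the study's methods, its floxed allele was deleted by Cre under the Villin1 promoter, which is active across the intestinal epithelium, and littermates served as controls; the Cre status of the WT animals is not given in the sources used here, and age is given only as a range over the mice of the whole study. Separate animals are implied by the design, but the labels give only replicate numbers, so p values measure the spread between these libraries.

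Before S phase, the origin recognition complex, CDC6 and CDT1 load the MCM2-7 ring onto DNA, and geminin blocks CDT1 once S phase has begun. The kinase CDC7 with its partner DBF4, together with cyclin-dependent kinases, then lets CDC45 and GINS join the ring to form the active helicase. In the small intestine these genes are used in the dividing cells of the crypt, whereas the enterocytes of the villus have left the cell cycle.

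Replication genes were higher in the Rank-knockout epithelium at most steps of the pathway. By edgeR's quasi-likelihood test with an adjusted p under 0.05, 27 of the 44 genes were higher in Rank-knockout, 0 were lower, 12 were tested without passing and 5 had too few counts to be tested. Of all 9855 tested genes, 15.8% were higher and 14.6% lower by the same test. The log2 fold changes of the 39 tested genes were all above 0, from 0.27 for Ccne2 to 1.67 for Fen1, which is a 3.17-fold difference, and their median was 1.0 against 0.02 for all tested genes. DESeq2 and limma-voom called 24 and 26 of them higher and 0 lower, and since none of the fitted values was negative, 0 were lower at an unadjusted p under 0.05. In bulk RNA, more cells of a type and more RNA per cell cannot be told apart.

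By role, the median log2 fold change was 1.40 for Okazaki fragment joining and 1.23 for the MCM ring, and 0.61 for the licensing factors, of which none passed the test with TMM scaling and all 4 did with library totals. At least 2-fold and past the threshold were 18 genes, where 5.68% of all tested genes were. In 19 of the 39 tested genes every Rank-knockout library lay above every WT library, as it did in 14.4% of all tested genes. The median replication gene had a larger log2 fold change than 94% of tested genes, and Ccne2, the lowest, than 66.6%. Of the 39, 31 passed the filter on low counts in all 8 libraries, and 8 passed it in fewer than 4 WT libraries. These were Cdc45, Gins3, Cdc7, Pola2, Prim1, Pole, Rfc4 and Ccne1, of which Pola2 and Rfc4 passed it through the Rank-knockout libraries alone. Among them Gins3, Pola2, Prim1, Pole and Ccne1 were called higher, having entered the test with the help of Rank-knockout libraries. With no filter, 34 of the 44 were higher and 0 lower, beside 8.54% of 20768 genes higher. Those 20768 include the genes with too few counts for the main test.

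**Figure D1:**
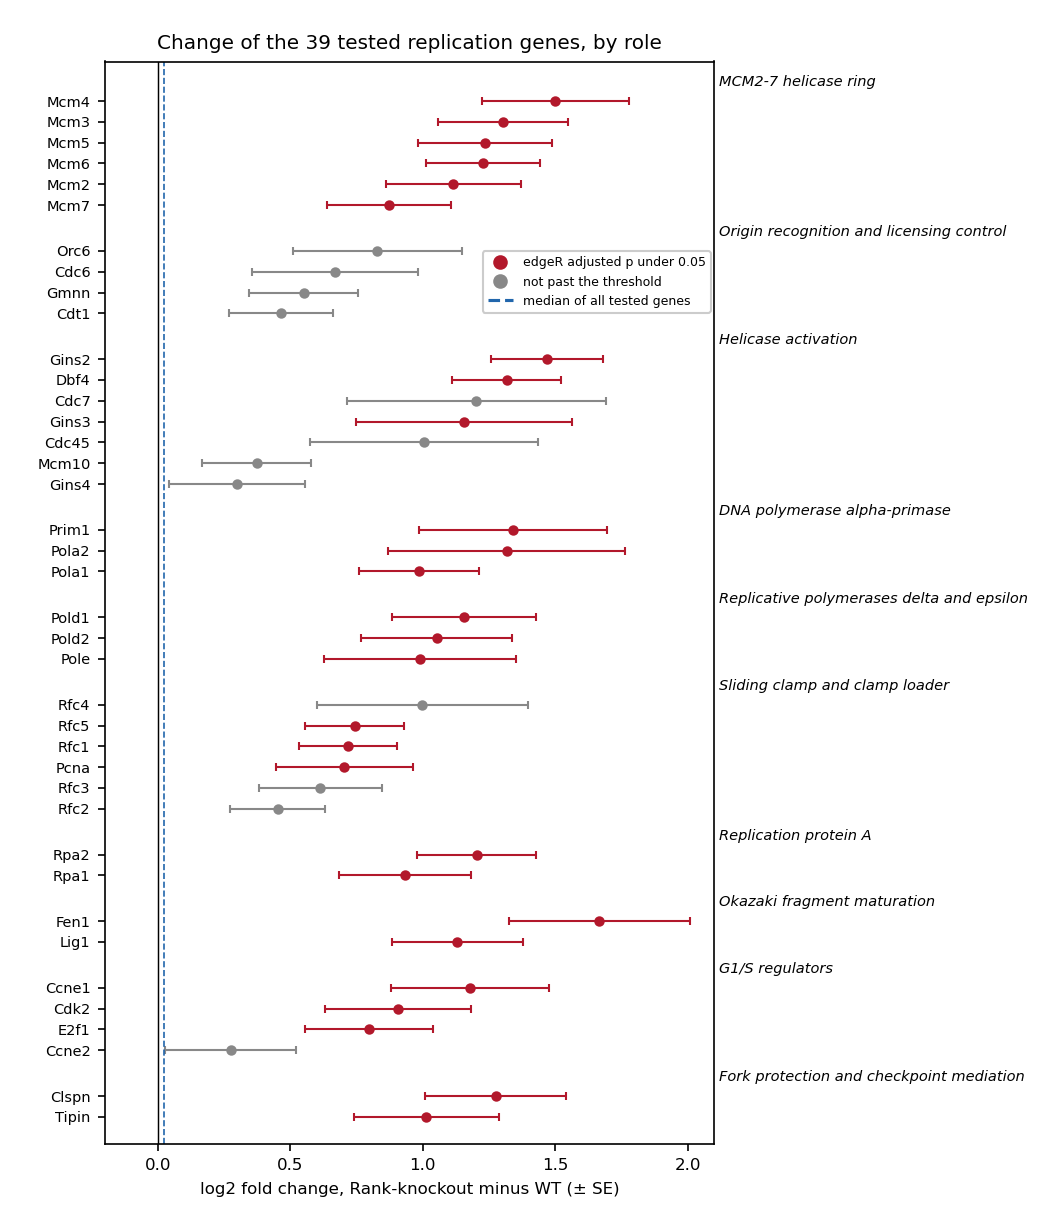
Log2 fold change of each tested replication gene, Rank-knockout minus WT, with bars of 1 SE from the edgeR fit over 4 WT and 4 Rank-knockout libraries; genes are grouped by role, red marks an adjusted p under 0.05, grey a gene not past it, and the dashed line is the median of all tested genes, 0.02. All 39 points lie right of 0, and the 4 grey points of the licensing group and those of Gins4, Mcm10 and Ccne2 lie at or under 0.83.

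Depth and scaling bear on these values. Total counts ran from 1530781 to 4335653 in WT and from 2103716 to 4321154 in Rank-knockout, so counting error was larger in most WT libraries. Scaling by library totals in place of TMM moved the median of all tested genes from 0.02 to 0.22 and the calls over all genes from 1555 higher and 1438 lower to 2566 and 859, and with library sizes that leave out the 50 most abundant genes they were 2164 and 1016. A change of library sizes shifts all genes alike, so that the replication genes had a median 0.98 above that of all genes under all 3 by construction. Tnfrsf11a itself was 60.7 ± 17.7 CPM in WT (tags scaled to a common library size; SD, n = 4) against 38.0 ± 8.64 CPM with the knockout, which is -0.67 on the log2 scale (SE 0.22, edgeR adjusted p = 0.032). The ranges overlapped. Whether the 3′ tags come from outside the floxed stretch was not tested. The paper reports loss of RANK from the intestine of the knockout mice.

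The 6 subunits of the MCM2-7 ring, the motor that unwinds DNA at the fork, rose without exception, with log2 fold changes from 0.87 to 1.5. Mcm6, on GRCm38 chromosome 1 from 128331590 to 128359664 on the minus strand, gave 40.4, 31.7, 43.0 and 36.6 CPM in WT replicates 1 to 4 and 113, 74.7, 108 and 56.1 CPM in Rank-knockout replicates 1 to 4. The lowest Rank-knockout library, replicate 4, was still above the highest WT library. On the log2 scale the rise was 1.23 (SE 0.22, edgeR adjusted p = 0.00092). Mcm4 read 11.6, 7.35, 18.4 and 15.3 CPM in WT and 47.5, 25.9, 36.4 and 30.6 CPM in Rank-knockout, a rise of 1.5 on the log2 scale (SE 0.28, edgeR adjusted p = 0.0013). Mcm3 read 34.9, 55.2, 34.8 and 31.3 CPM in WT and 132, 98.7, 108 and 57.5 CPM in Rank-knockout, 1.30 on the log2 scale (SE 0.25). In both genes the genotypes stayed apart, although Mcm3 in Rank-knockout replicate 4 was barely above WT replicate 2. Mcm5 (1.24, SE 0.25) and Mcm2 (1.12, SE 0.25) rose by similar amounts with ranges apart. Mcm7, which overlaps Mir25 and Mir93 on the same strand, had the smallest rise, 0.87 (SE 0.23, edgeR adjusted p = 0.012), and its lowest Rank-knockout library, 58.5 CPM, lay under the highest WT library, 75.3 CPM.

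Promoters of replication genes are known for sites of the E2F factors, the transcription factors that the retinoblastoma protein holds back until S phase. RefSeq windows of GRCm38.p6, from 250 bases before to 50 bases after the start site, were found for 34 of the 44 genes, 40 windows in all. They were searched on both strands for the E2F letters TTTCCCGC, TTTGGCGC, TTTCGCGC and TTTGCCGC. At least 1 of these stood in 15 of the 40 windows, 37.5%, against 2.26% of all 32851 windows and 4.17% of the windows of tested genes. Mcm6, Mcm5, Cdk2 and Pola1 are shown as examples of genes that rose and hold the letters before the start site, as Mcm7 and Gins3 do too; each stretch is the 170 bases before the start, read 5′ to 3′ on the gene's strand, and capitals mark E2F letters on either strand. The stretches are chr1:128359706-128359875 (minus) for Mcm6, chr8:75109339-75109508 (plus) for Mcm5, chr10:128705052-128705221 (minus) for Cdk2 and chrX:93632156-93632325 (minus) for Pola1.
Mcm6: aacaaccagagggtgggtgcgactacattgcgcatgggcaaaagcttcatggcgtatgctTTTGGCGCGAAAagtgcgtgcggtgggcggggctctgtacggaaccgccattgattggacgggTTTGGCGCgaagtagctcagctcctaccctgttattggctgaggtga
Mcm5: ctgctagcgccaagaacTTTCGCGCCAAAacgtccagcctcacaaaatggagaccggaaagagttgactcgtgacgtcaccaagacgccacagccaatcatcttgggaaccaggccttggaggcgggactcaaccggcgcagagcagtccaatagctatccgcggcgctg
Cdk2: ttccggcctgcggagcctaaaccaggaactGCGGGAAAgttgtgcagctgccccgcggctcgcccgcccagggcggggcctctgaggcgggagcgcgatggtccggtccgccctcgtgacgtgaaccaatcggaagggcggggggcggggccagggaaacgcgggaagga
Pola1: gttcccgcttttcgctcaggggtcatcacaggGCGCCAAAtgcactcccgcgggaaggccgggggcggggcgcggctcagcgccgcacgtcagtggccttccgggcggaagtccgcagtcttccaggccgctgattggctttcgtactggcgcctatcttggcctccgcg
Mcm6 holds 3 matches, of which an upstream pair overlaps, and Mcm5 holds 2 that overlap. Cdk2 and Pola1 hold 1 each.

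Replication genes rose both with and without the E2F letters. Among tested genes with a window, 10 of 13 with the letters were called higher, with a median log2 fold change of 1.13, and 13 of 18 without them, with a median of 1.03. Cdt1, Cdc6 and Rfc3 hold the letters and did not pass the test, whereas Fen1, Mcm2, Rpa2 and Ccne1 rose and do not hold them in this window. The other letters searched were the CHR element TTTGAA, the CCAAT box CCAAT and the GC box GGGCGG. The CHR stood in 8 of the 40 replication windows, 12.1% of those of tested genes and 17.9% of all windows, and in 72.0% of the 25 windows of genes of G2 and mitosis, where the E2F letters stood in 4.0%. The CCAAT box stood in 55.0% of the replication windows against 37.4% of all and 38.0% in windows of tested genes, and the GC box in 72.5% against 35.7%, or 63.9% in windows of tested genes. Median GC content was 61.8% in the replication windows, 61.0% in those of tested genes and 52.7% in all. A match describes the letters and shows no binding.

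**Figure D2:**
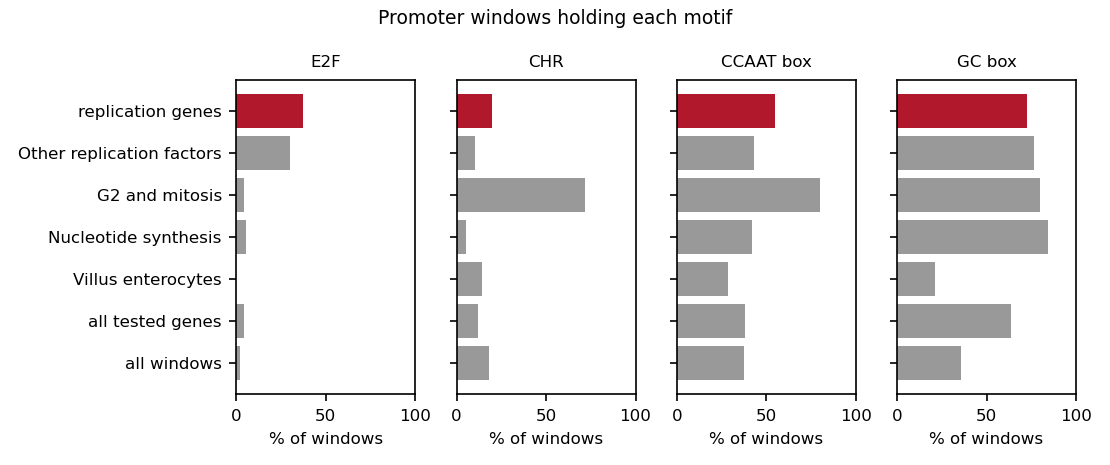
Share of RefSeq promoter windows, in percent, that hold each motif on either strand, for the replication genes in red and for other gene lists, all tested genes and all windows in grey. E2F letters stand in 37.5% of replication windows and 30.0% of those of other replication factors, whereas the CHR bar is longest, 72.0%, in genes of G2 and mitosis.

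Licensing and its control had the lowest median log2 fold change of the roles. Orc6 of the origin recognition complex, Cdc6 and Cdt1, which load the ring, and Gmnn, the inhibitor of CDT1, were tested, and none of the 4 passed the threshold. With library totals all 4 did, and without the 50 most abundant genes in the library sizes 3 did, Cdc6 being the exception. With no filter Orc6, Cdt1 and Gmnn passed, and with the replicate number as a block Cdc6, Cdt1 and Gmnn. Gmnn also passed with limma-voom and Cdt1 after thinning to equal depth. Gmnn came nearest, with 27.4, 17.5, 33.5 and 26.6 CPM in WT and 43.5, 36.0, 35.5 and 34.0 CPM in Rank-knockout. These ranges did not overlap, yet Rank-knockout replicate 4 was only just above WT replicate 3, and the log2 fold change of 0.55 (SE 0.21) had an edgeR adjusted p of 0.054. Orc6 did not overlap either, at 5.83 to 6.83 CPM in WT and 7.13 to 15.5 CPM in Rank-knockout, with a difference of 0.83 on the log2 scale (SE 0.32, edgeR adjusted p = 0.059). Cdt1 read 69.2, 58.3, 37.6 and 47.3 CPM in WT and 87.0, 68.7, 83.6 and 55.6 CPM in Rank-knockout, and Cdc6 ran from 6.66 to 15.8 CPM and from 9.49 to 23.8 CPM. Both overlapped, with log2 fold changes of 0.47 (SE 0.20) and 0.67 (SE 0.31) and edgeR adjusted p values of 0.082 and 0.12. Without Rank-knockout replicate 4 all 4 passed, Orc6 with an edgeR adjusted p of 0.024, Cdc6 with 0.019, Cdt1 with 0.030 and Gmnn with 0.0496. Without Rank-knockout replicate 2 Orc6 also passed (0.039), and without WT replicate 3 Gmnn did (0.030). The log2 ratio of Cdt1 to its inhibitor Gmnn averaged 1.0 ± 0.66 for WT against 0.96 ± 0.21 for Rank-knockout (SD, n = 4 per genotype; exact two-sided permutation p = 0.94).

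Helicase activation divided into genes with large rises and genes with little difference. Gins2, a GINS subunit on chromosome 8 from 120578633 to 120589304, gave 19.9, 22.6, 26.0 and 24.0 CPM in WT and 88.7, 48.4, 66.5 and 50.9 CPM in Rank-knockout, and no Rank-knockout library came near the WT range. Its log2 fold change of 1.47 (SE 0.21) had the smallest edgeR adjusted p of the 39 tested replication genes, 0.00027. Dbf4, the activating partner of the CDC7 kinase, read 28.1, 19.3, 32.1 and 24.6 CPM in WT and 83.8, 54.4, 57.6 and 56.4 CPM in Rank-knockout, a rise of 1.32 on the log2 scale (SE 0.20, edgeR adjusted p = 0.00044). Gins3 rose by 1.16 (SE 0.41, edgeR adjusted p = 0.042) on 28 counts summed over WT and 94 over Rank-knockout. Gins4 and Mcm10, which helps to open the loaded helicase, did not pass. Gins4 read 9.59, 11.9, 16.4 and 7.32 CPM in WT and 15.5, 13.9, 15.7 and 11.1 CPM in Rank-knockout, with WT replicate 3 above every Rank-knockout library and a difference of 0.30 on the log2 scale (SE 0.26, edgeR adjusted p = 0.40). Mcm10 ran from 22.6 to 30.1 CPM in WT and from 22.9 to 40.5 CPM in Rank-knockout, 0.37 on the log2 scale (SE 0.21, edgeR adjusted p = 0.18).

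Cdc7 and Cdc45, which joins the ring with GINS, had values close to 1 or above on the log2 scale but scattered widely. Cdc7 read 5.48, 1.27, 2.05 and 2.0 CPM in WT and 7.22, 4.50, 2.25 and 7.12 CPM in Rank-knockout, a difference of 1.20 on the log2 scale (SE 0.49, edgeR adjusted p = 0.072). Cdc45 read 6.17, 2.28, 8.88 and 2.66 CPM in WT and 13.6, 4.88, 8.09 and 8.70 CPM in Rank-knockout, a difference of 1.0 on the log2 scale (SE 0.43, edgeR adjusted p = 0.088). In both, a WT library lay above at least 1 Rank-knockout library. Calls changed with the scaling, the filter and the libraries kept. Of the 7 tested helicase activation genes, 3 were higher with TMM scaling, 6 with library totals (all but Gins4) and 4 without the 50 most abundant genes in the library sizes. Cdc45 also passed with no filter (1.04, edgeR adjusted p = 0.029), and Gins3 did not pass with DESeq2 (adjusted p = 0.051). Gins3 lost its call when WT replicate 1, 3 or 4, or else Rank-knockout replicate 1, 2 or 3, was left out, with edgeR adjusted p values from 0.072 to 0.12, and its log2 fold change without WT replicate 2 was 1.91. Cdc7 passed when WT replicate 1 (0.028) was left out or Rank-knockout replicate 3 was (0.043), Cdc45 without WT replicate 3 (0.033) and Mcm10 without Rank-knockout replicate 4 (0.043).

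All 6 tested polymerase subunits rose, but Pola2, Prim1 and Pole passed the filter on low counts in fewer than 4 WT libraries. Pola1, the catalytic subunit of DNA polymerase alpha, which extends the primers made by primase, read 23.3, 34.2, 20.5 and 20.6 CPM in WT and 61.6, 55.9, 51.7 and 33.0 CPM in Rank-knockout, a rise of 0.99 on the log2 scale (SE 0.23, edgeR adjusted p = 0.0045). Only Rank-knockout replicate 4 fell within the WT range, just under WT replicate 2. Prim1, the catalytic subunit of primase, rose by 1.34 (SE 0.36, edgeR adjusted p = 0.010), from 2.53 to 7.54 CPM in WT to 7.64 to 16.1 CPM in Rank-knockout, and with all libraries thinned to the shallowest depth it was no longer called (0.45, edgeR adjusted p = 0.56). Pola2, the accessory subunit of polymerase alpha, was at 2.74, 3.29, 2.73 and 0 CPM in WT and at 5.94, 7.13, 4.50 and 6.59 CPM in Rank-knockout. The 0 of WT replicate 4 allows up to 3 counts, or 2.0 CPM, and the rise of 1.32 (SE 0.45, edgeR adjusted p = 0.035) rests on 21 WT counts.

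Pold1, the catalytic subunit of polymerase delta, gave 13.7, 17, 12.3 and 6.66 CPM in WT and 34.2, 31.9, 31.9 and 17.9 CPM in Rank-knockout, a rise of 1.16 on the log2 scale (SE 0.27, edgeR adjusted p = 0.0051). Rank-knockout replicate 4 was far below its 3 fellows and still above each WT library. Pold2, the second delta subunit, rose by 1.05 (SE 0.29, edgeR adjusted p = 0.014), with WT from 17.3 to 46.1 CPM and Rank-knockout from 40.9 to 76.0 CPM. After thinning to equal depth Pold2 was no longer called (0.89, edgeR adjusted p = 0.091). Pole, the catalytic subunit of polymerase epsilon on the leading strand, read 5.48, 5.32, 4.78 and 3.33 CPM in WT and 15.1, 10.1, 4.95 and 7.12 CPM in Rank-knockout, 0.99 on the log2 scale (SE 0.36, edgeR adjusted p = 0.048), with Rank-knockout replicate 3 inside the WT range. Leaving out any WT library or Rank-knockout replicate 1 or 2 took the call of Pole away, with edgeR adjusted p values from 0.059 to 0.23, and without Rank-knockout replicate 1 its log2 fold change was 0.63. Pola2 lost its call when WT replicate 1, 3 or 4, or else Rank-knockout replicate 1, 2 or 4, was left out (edgeR adjusted p from 0.057 to 0.081).

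Of the 6 genes of the clamp and its loader, 3 passed the threshold, and the median of the 6 was 0.71 on the log2 scale. With RLE size factors 2 passed, and with library totals or without the 50 most abundant genes in the library sizes all 6 did. Pcna, the sliding clamp that tethers polymerases to DNA, read 15.8, 26.1, 15.0 and 12 CPM in WT and 33.1, 21.8, 39.6 and 24.0 CPM in Rank-knockout. WT replicate 2 was above 2 of the Rank-knockout libraries, and the log2 fold change of 0.70 (SE 0.26) was just past the threshold (edgeR adjusted p = 0.049). It did not pass when WT replicate 1, 3 or 4, or else Rank-knockout replicate 1 or 3, was left out (edgeR adjusted p from 0.12 to 0.16), and Pcna has the annotated copies Pcna-ps1 and Pcna-ps2, so reads could be shared. Of the RFC subunits, which load the clamp, Rfc5 rose by 0.74 (SE 0.19, edgeR adjusted p = 0.0075), with 65.1, 85.6, 60.1 and 45.9 CPM in WT and 117, 116, 121 and 83.0 CPM in Rank-knockout. There too WT replicate 2 lay above Rank-knockout replicate 4. Rfc1, the large subunit, rose by 0.72 (SE 0.19, edgeR adjusted p = 0.0089). Rfc2, Rfc3 and Rfc4 had log2 fold changes of 0.45, 0.61 and 1.0 with edgeR adjusted p values of 0.067, 0.055 and 0.068, and Rfc4 rested on 30 WT counts. Without Rank-knockout replicate 4 these 3 passed (0.023, 0.027 and 0.035), and without WT replicate 2 Rfc2 and Rfc4 did (0.017 and 0.043). Rfc2 and Rfc3 also passed with no filter and with the replicate number as a block.

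All 4 tested genes of single-strand binding and Okazaki fragment joining rose. Rpa2, a subunit of replication protein A, which coats unwound DNA, gave 54.1, 74.2, 47.1 and 45.9 CPM in WT and 160.3, 123, 158 and 78.6 CPM in Rank-knockout, a rise of 1.20 on the log2 scale (SE 0.22, edgeR adjusted p = 0.0015). Rpa1, the large subunit, which overlaps Gm47300 on the same strand, rose by 0.93 (SE 0.25, edgeR adjusted p = 0.010). In both, each Rank-knockout library was above each WT library. Fen1, on chromosome 19 from 10199132 to 10204169, cuts the flap of an Okazaki fragment and read 22.6, 6.08, 22.5 and 18.0 CPM in WT and 70.3, 45, 45.9 and 41.4 CPM in Rank-knockout. The log2 fold change, 1.67 (SE 0.34, edgeR adjusted p = 0.0035), was the largest of the 39, and the WT libraries were also far apart, replicate 2 being the low one. Lig1, the ligase that seals the nick, had the most counts, 2555 over WT and 7819 over Rank-knockout. It read 277, 394, 238 and 165 CPM in WT and 678, 619, 686 and 383 CPM in Rank-knockout, a rise of 1.13 on the log2 scale (SE 0.25, edgeR adjusted p = 0.0048), with only Rank-knockout replicate 4 inside the WT range.

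**Figure D3:**
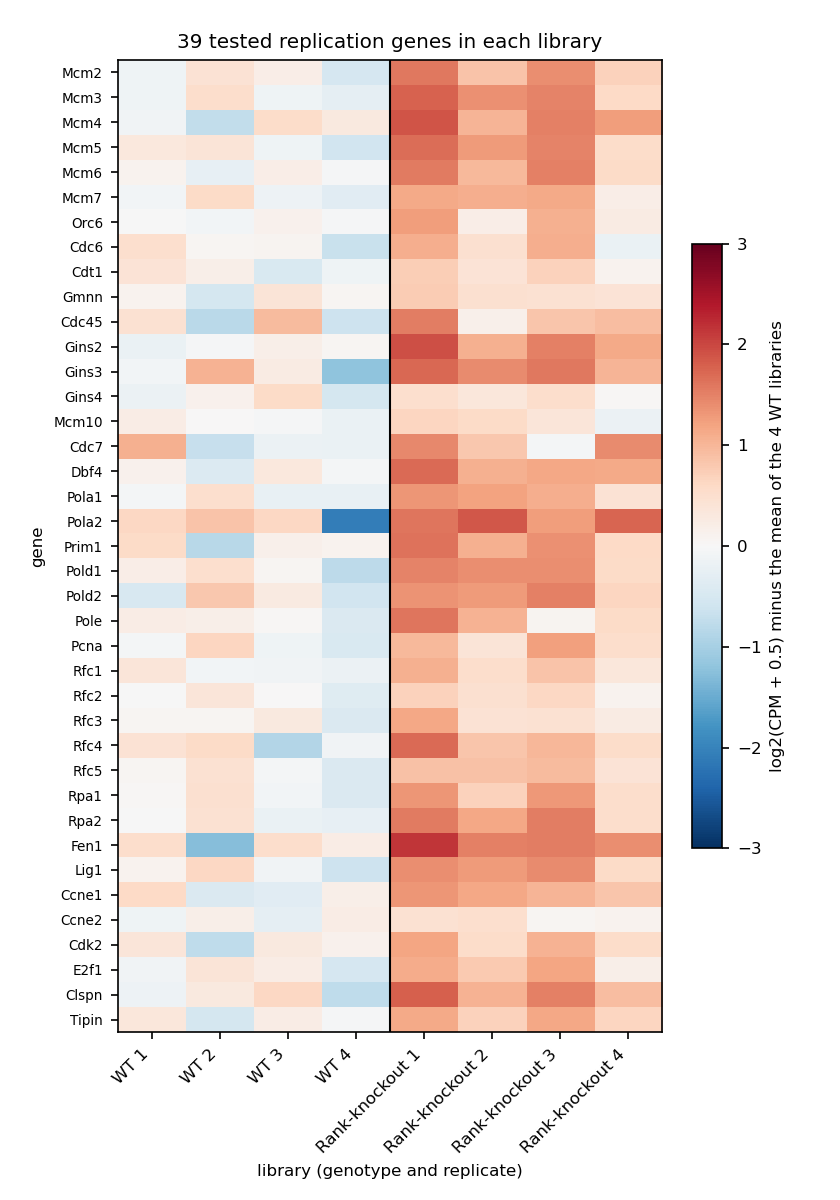
Level of each tested replication gene in each library, as log2(CPM + 0.5) minus the mean of the 4 WT libraries of that gene; red is above and blue below that mean, and the line divides WT from Rank-knockout. Rank-knockout replicate 1 is the highest of its genotype in 28 of 39 genes, replicate 4 the lowest in 29, and WT replicate 4 the lowest WT library in 22.

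Among the regulators of S phase entry, Ccne1, which encodes cyclin E1, rose and its paralogue Ccne2 did not pass the test. Ccne1 read 8.22, 3.80, 4.1 and 5.99 CPM in WT and 14, 12.4, 11.2 and 9.75 CPM in Rank-knockout, a rise of 1.18 on the log2 scale (SE 0.30, edgeR adjusted p = 0.0078). Ccne2 read 8.22, 10.4, 7.51 and 10.7 CPM in WT and 12.7, 13.1, 9.44 and 9.75 CPM in Rank-knockout, 0.27 on the log2 scale (SE 0.25, edgeR adjusted p = 0.43). The genotypes stayed apart in Ccne1 and were mixed in Ccne2. The log2 ratio of Ccne1 to Ccne2 averaged -0.71 ± 0.53 over WT libraries and 0.071 ± 0.14 over Rank-knockout libraries (SD, n = 4 per genotype). That difference of 0.78 had an exact two-sided permutation p of 0.086, or 0.51 adjusted over the 6 tested pairs. Cdk2, the kinase that cyclin E activates, rose by 0.91 (SE 0.28, edgeR adjusted p = 0.021) with ranges apart, from 6.59 to 15.1 CPM in WT and from 17.1 to 27.2 CPM in Rank-knockout. E2f1 read 21.9, 31.4, 28.0 and 16.6 CPM in WT and 52.2, 41.3, 54.4 and 27.2 CPM in Rank-knockout, 0.80 on the log2 scale (SE 0.24, edgeR adjusted p = 0.021), with Rank-knockout replicate 4 inside the WT range. Cdk2 was no longer called when WT replicate 2, or else Rank-knockout replicate 1 or 3, was left out (edgeR adjusted p from 0.054 to 0.077), nor was E2f1 for WT replicate 1 or 4, or else Rank-knockout replicate 1 or 3 (0.066 to 0.077).

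Both fork protection factors rose. Clspn, which encodes claspin, the mediator of the replication checkpoint, read 16.4, 22.8, 28.7 and 10.7 CPM in WT and 65.4, 38.7, 53.1 and 35.6 CPM in Rank-knockout, a rise of 1.27 on the log2 scale (SE 0.27, edgeR adjusted p = 0.0027). Tipin, the partner of TIMELESS at the fork, rose by 1.01 (SE 0.27, edgeR adjusted p = 0.011), from 5.07 to 9.59 CPM in WT and from 12.1 to 17.5 CPM in Rank-knockout. After thinning to equal depth Tipin was no longer called (0.71, edgeR adjusted p = 0.16). Neither gene had a WT library within the Rank-knockout range.

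The mean of each of the 5 genes that could not be tested was higher with the knockout, on few counts. Orc1, the largest subunit of the origin recognition complex, had 3, 7, 3 and 3 counts in WT and 22, 8, 7 and 12 in Rank-knockout. Prim2, the large subunit of primase, had 0, 14, 2 and 1 counts in WT and 25, 11, 15 and 14 in Rank-knockout, and Pole2, the second subunit of polymerase epsilon, had 3, 5, 4 and 1 and then 19, 12, 10 and 13. On the CPM scale these 3 genes did not overlap between genotypes. Gins1 had 4, 6, 1 and 0 counts in WT and 25, 7, 8 and 11 in Rank-knockout, and Rpa3, the small subunit of replication protein A, 4, 3, 1 and 2 and then 14, 5, 3 and 10. Both overlapped on the CPM scale. In the fit with no filter, Prim2 passed (1.41, SE 0.49, edgeR adjusted p = 0.029), and Gins1 (1.51), Pole2 (1.37), Orc1 (0.90) and Rpa3 (0.90) did not, with adjusted p values from 0.052 to 0.43.

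Ratios were taken for 8 pairs of partners, paralogues or an inhibitor and its target, of which 6 could be tested. The smallest p of the exact two-sided permutation test is 0.0286, or 0.171 for a single pair adjusted over the 6, so 1 changed pair could not have passed and the absence of a call says nothing of the ratios. The log2 ratio of Pold1 to Pold2 differed by 0.02 (p = 0.94, exact), that of Pola1 to Pola2 by -0.45 (p = 0.63, exact), that of Cdc7 to Dbf4 by -0.41 and that of Clspn to Tipin by 0.41 (both p = 0.40, exact, or 0.80 adjusted). Among the 6 tested pairs, ratios of single libraries spread by up to 1.03 (SD over WT, Pola1 to Pola2). That ratio rests on WT replicate 4, where Pola2 had 0 counts and the prior count sets the value: without this library the difference was 0.059, and with a prior count of 0.5 it was -0.98. Prim1 to Prim2 and Pole to Pole2 were not tested because Prim2 and Pole2 had too few counts.

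Library by library, the replication genes as a whole kept the genotypes apart. Their summed share of all counts was 0.0790% to 0.124% in WT and 0.165% to 0.298% in Rank-knockout, without overlap. The mean log2 CPM of the 39 tested genes was 4.22, 4.16, 4.17 and 3.76 in WT and 5.38, 4.94, 5.12 and 4.65 in Rank-knockout. WT replicate 4 and Rank-knockout replicate 4 were the lowest of their genotypes and Rank-knockout replicate 1 the highest. Without Rank-knockout replicate 1 21 genes were called higher, without WT replicate 4 22 and without Rank-knockout replicate 4 34, where 10.8%, 10% and 17.5% of all tested genes were, and 18 of the 27 called genes stayed called under all 17 alternatives run. The coefficient of variation of a gene over 4 libraries had a median of 28.0% for WT and of 26.6% for Rank-knockout. Across the 39 genes, the size of the change had little relation to the level (Pearson r = -0.174, Spearman rho = -0.154, as a description across genes of the same libraries).

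Rank-knockout libraries, with their higher level of replication transcripts, had fewer villus transcripts. Of 14 markers of villus enterocytes, 13 fell and 0 rose, with a median log2 fold change of -1.13, and their summed level was 32776 to 44940 CPM in WT and 15225 to 21492 CPM in Rank-knockout. Within each genotype, replicate 4 was lowest in replication genes and highest in villus markers, and Rank-knockout replicate 1 was highest in the former and lowest in the latter. Of 9 markers of crypt stem and progenitor cells 5 rose and 0 fell (median 1.06), and of 7 Paneth cell markers 4 rose and 0 fell (median 1.21). Of 7 goblet cell markers 2 rose and 4 fell (median -0.58), or 2 and 2 under library totals. Under library totals 11 of the 14 villus markers fell. The part of these cell types in the rise of the replication genes was not tested.

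**Figure D4:**
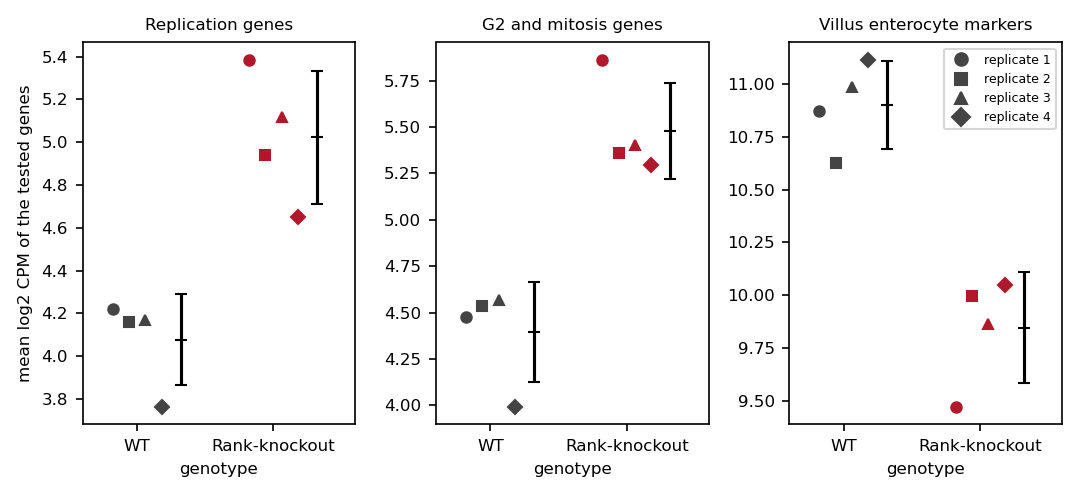
Mean log2 CPM per library of the 39 tested replication genes, of 25 tested genes of G2 and mitosis and of 14 markers of villus enterocytes, each panel with its own axis; symbols mark replicates, grey WT and red Rank-knockout, and the bars give the mean ± SD of 4 libraries. Replication and mitosis genes lie higher in every Rank-knockout library and villus markers lower, with replicate 4 lowest of its genotype in the first and second panels.

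Of 8 general epithelial markers, 2 rose and 3 fell, where 15.8% of all tested genes rose and 14.6% fell. Other cell types that the isolate could hold had few transcripts or showed no call with TMM scaling. All 6 tested enteroendocrine, 4 tuft and 5 T cell markers were without a call. The enteroendocrine marker Chgb, chromogranin B, was called higher with library totals (0.57, edgeR adjusted p = 0.013) and without the 50 most abundant genes in the library sizes (0.49, edgeR adjusted p = 0.027). Summed T cell markers, 9 genes, ran from 172 to 264 CPM over WT libraries and from 116 to 188 CPM over those of Rank-knockout. None of the 7 B and plasma cell markers or of the 6 myeloid markers had enough counts to be tested, nor had 9 of 10 stromal markers; 2, 1 and 1 of them were at 0 in all libraries, and B and plasma cell markers summed to 6.83 to 11 CPM in WT and 0.45 to 4.88 CPM in Rank-knockout, without overlap. Jchain, the joining chain of secreted antibodies, was among them, with 5.35 ± 1.86 CPM for WT against 1.98 ± 1.06 CPM for the knockout (SD, n = 4) and ranges apart; it was named after its values were seen, and its part in the rise of the replication genes was not tested.

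A list of 30 further replication factors was set beside them. Of 27 tested, 14 rose and 1 fell, with a median log2 fold change of 0.81. Chtf18, of an alternative clamp loader, rose by 1.5 (SE 0.29), from 5.20 ± 2.46 CPM in WT to 16.3 ± 2.20 CPM in Rank-knockout (SD, n = 4), and Timeless, the partner of TIPIN, rose by 1.31 (SE 0.27). Orc3 was not called (-0.07, SE 0.27). Pold4, the small accessory subunit of polymerase delta, went the other way, from 9.49 ± 1.30 CPM to 5.33 ± 0.501 CPM, a difference of -0.85 on the log2 scale (SE 0.27, edgeR adjusted p = 0.024), with every Rank-knockout library under every WT library, as in 14.3% of all tested genes. Under library totals it was not called (-0.65, edgeR adjusted p = 0.070).

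Of 12 genes of the E2F and pocket protein family other than E2f1, 4 rose and 1 fell (median 0.44). Tfdp1, the dimer partner of E2F proteins, rose by 1.64 (SE 0.40, edgeR adjusted p = 0.0058) and E2f7, a repressor of the family, by 1.21 (SE 0.31, edgeR adjusted p = 0.0086). Rb1, which encodes the retinoblastoma protein, fell from 45.6 ± 10.8 CPM to 29.3 ± 5.58 CPM, -0.60 on the log2 scale (SE 0.21, edgeR adjusted p = 0.037) with overlapping ranges, and Rbl2 had -0.44 (SE 0.28, edgeR adjusted p = 0.26). Rb1 was not called under library totals (-0.40, edgeR adjusted p = 0.14) or without the 50 most abundant genes in the library sizes (-0.47, edgeR adjusted p = 0.092). Upstream of them, 4 of 11 tested D cyclins, G1 kinases and CDK inhibitors rose and 1 fell: Ccnd1, which encodes cyclin D1, rose by 1.44 (SE 0.20), and Cdkn1a, which encodes the CDK inhibitor p21, fell from 247 ± 39.5 CPM to 137 ± 9.29 CPM (-0.84, SE 0.14, edgeR adjusted p = 0.00073).

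Lists of other steps of the cycle were also counted. Of 25 tested genes of G2 and mitosis 24 rose and 0 fell (median 1.07), from Bub3 at 0.62 (SE 0.13) to Cdc25c at 1.84 (SE 0.40). The mean log2 CPM of the replication genes minus that of this list averaged -0.32 ± 0.085 for WT and -0.46 ± 0.15 for Rank-knockout (SD, n = 4). Of 18 tested genes of nucleotide synthesis 14 rose and 0 fell (median 0.97), among them Dctd, a dCMP deaminase, by 2.07 (SE 0.37) and Rrm2, a subunit of ribonucleotide reductase, by 1.38 (SE 0.28). Of 9 tested genes of the replication checkpoint and S phase exit 2 rose, where 15.8% of all tested genes did. These were Ccna2, which encodes cyclin A2, by 1.74 (SE 0.23) and Atr, the checkpoint kinase, by 1.34 (SE 0.33). Cdc25a (-0.21, SE 0.14) and Atrip (-0.51, SE 0.32) did not pass.

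**Figure D5:**
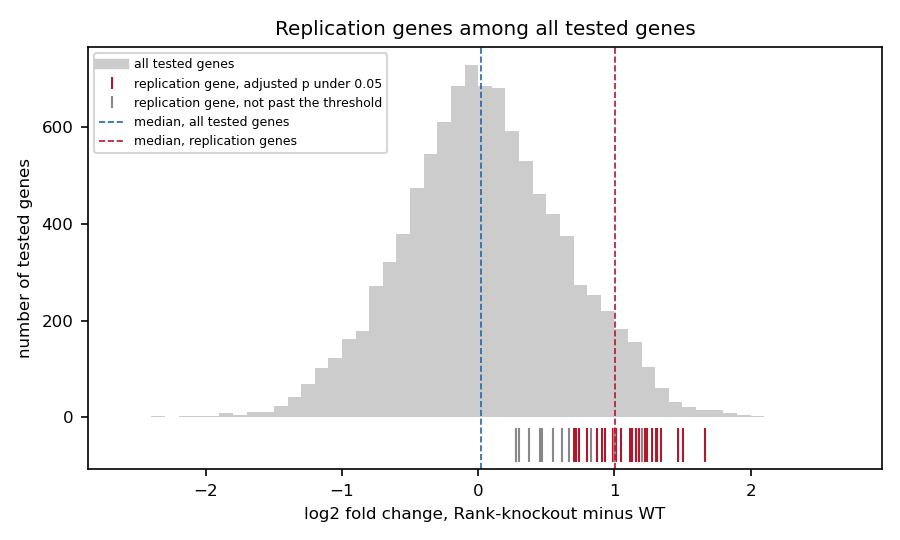
Histogram of the log2 fold changes, Rank-knockout minus WT, of all 9855 tested genes, with a tick under it for each of the 39 tested replication genes, red where the edgeR adjusted p is under 0.05; dashed lines are the medians, 0.02 for all tested genes and 1.0 for the replication genes. All ticks lie right of the median of all genes, and 26 lie among the top 10% of tested genes.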

How the data were processed

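RNA of intestinal epithelial cells from 4 WT and 4 Rank-knockout mice at lactation day 5 was measured by 3′ mRNA-seq (QuantSeq FWD), which gives about 1 tag per transcript. Reads were trimmed by the authors (BBDuk), freed of abundant sequences (bowtie2), aligned to GRCm38/mm10 (STAR) and counted on the sense strand per Ensembl gene (featureCounts). The deposited values are raw counts, and no source mentions molecular identifiers, so that copies made by PCR are counted too. The authors tested counts with DESeq2.

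The table held 54532 genes, 33764 of them at 0 in all libraries, and 54409 identifiers were named from GENCODE M21. Totals ran from 1530781 to 4335653 counts, so that 1 count was 0.212 to 0.685 CPM. The test was that of edgeR 4.0.16 under R 4.3.3: filterByExpr (10 counts at the median library size in 4 libraries), TMM scaling, robust quasi-likelihood F-test with genotype as the only term, and Benjamini-Hochberg adjustment over 9855 genes at 0.05. Standard errors come from the F statistic. CPM are on TMM-adjusted library sizes, and log2 CPM use a prior count of 2. Gene pair ratios were compared by an exact permutation over 70 assignments, adjusted over the 6 testable of 8 pairs.

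Alternatives were DESeq2 1.42.0, limma-voom (limma 3.58.1), no filter or a mean CPM minimum of 5, scaling by RLE, by totals or by totals that omit the 50 most abundant genes, the replicate number as a block, equal depth by thinning and each library left out. The fit was tested on simulated data. Promoter windows came from RefSeq for GRCm38.p6, and 34 of 40 had their last bases in a transcript of the gene. Mcm4, Gmnn, Gins1, Gins2, Gins4, Prim2, Pole, Rfc2, Ccne2 and Tipin had none.

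The members, lists and tests were chosen with earlier results of these data known. Of the replication genes all are named, with values per library for the smallest p of each role, those unlike their role and those not tested; values per library of further members were added after they were seen. Of other lists at most 4 are named, those with the largest and smallest log2 fold changes. The value of 1 gene of nucleotide synthesis is not reported here. No per-sample column was left unused. Libraries of a genotype differed from each other by 3.99 to 24.4 times sampling noise (chi-square per degree of freedom, against counting error only), so no pair agreed within it and each was counted as 1 sample; this does not show that they came from separate animals.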

Additional observations from a re-analysis of the deposited data

Results flagged for a closer look

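In 12 of 94 sets of 4 libraries examined, 1 library stood apart from the other 3, where chance would give about 4.70 for independent sets. The sets come from the same libraries and are not independent, so nothing is concluded from the difference. Among totals, WT replicate 2 had 4335653 counts against 1530781 to 1616024, and for the mean log2 CPM of the tested replication genes WT replicate 4 had 3.76 against 4.16 to 4.22.

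In WT, Mcm3 was 55.2 CPM in replicate 2 against 31.3 to 34.9 in the others. Rfc1 was 67.8 CPM in replicate 1 against 45.9 to 49.7. Pola2 was 0 CPM in replicate 4 against 2.73 to 3.29, where 3 counts would be 2.0 CPM.

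In Rank-knockout, replicate 1 was the high library for Orc1 (4.67 CPM against 3.0 to 3.16), Dbf4 (83.8 against 54.4 to 57.6), Rfc3 (48.6 against 25.8 to 29.7) and Fen1 (70.3 against 41.4 to 45.9). Replicate 4 was the low library for Mcm7 (58.5 CPM against 108 to 113), Pold1 (17.9 against 31.9 to 34.2) and Rfc5 (83.0 against 116 to 121). Mcm7, Dbf4, Pold1, Rfc5 and Fen1 stayed called without each single library.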

How the results depend on the processing

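The count of replication genes higher in Rank-knockout was 20 to 37 over all alternatives, against 27, and 0 were lower in each. It was 24 with DESeq2, 25 with RLE size factors or a mean CPM of at least 5, 26 with limma-voom, 34 with no filter, 34 without the 50 most abundant genes in the library sizes, 37 with library totals and 20 of 33 tested after thinning. Of all genes, 14.2% were higher with DESeq2, 15.2% with RLE, 16.3% with the CPM minimum and 14.6% with limma-voom. The share was 8.54% with no filter, 22% without the 50 most abundant genes, 26% with library totals and 13.4% after thinning. Without single libraries it ran from 21 to 34. The median log2 fold change ran from 0.87 to 1.21, and other replication factors higher from 11 to 17. Over all genes, library totals gave 2566 higher and 859 lower, and single libraries left out gave 1020 higher (without WT replicate 4) to 1723, and 1097 to 1564 lower.

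Of the called genes, Gins3, Pole and Pcna lost their call with DESeq2, Pole and Pcna also with RLE size factors and limma-voom, and Prim1, Pold2, Pcna, Cdk2, E2f1 and Tipin after thinning. The cause was not tested. Of the log2 fold changes of single replication genes under the alternatives, 560 kept direction and side of the threshold, 46 newly passed it, 43 no longer passed and 0 reversed.

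Replicate numbers were shared by both genotypes, and no label says whether they pair the libraries. Correlations of the deviations of same-numbered libraries were 0.052, 0.153, -0.139 and 0.323. Those of differently numbered libraries ran from -0.353 to 0.249, and so few values cannot settle whether the libraries were paired. With the replicate number as a block, 32 replication genes were higher and 0 lower. Differences of 3 gene pair ratios changed sign when single libraries were left out: Cdt1 to Gmnn ran from -0.32 to 0.19, Pold1 to Pold2 from -0.081 to 0.25 and Pola1 to Pola2 from -0.69 to 0.059. A single pair could not pass in these settings, since its smallest adjusted p is 0.171; with the pairing by number the smallest unadjusted sign-flip p is 0.125.

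Depth limits genes with few counts. Without a filter 5 further genes entered, and the 5 had 10 to 17 counts over all WT libraries.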
